A study of Rattus norvegicus with 4 samples.

Results

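The 78 genes described here encode the proteins of the mitochondrial ribosome and the factors that run translation on it. They were taken from the table that pairs the probe sets of the array with genes, as every symbol that begins with Mrpl or Mrps and a digit, together with Tufm, Tsfm, Gfm1, Gfm2 and Mtif2. Mtif3, which the same rule asks for, has no row in that table and was not analysed here. By symbol alone, the 78 genes were grouped as 46 of the large subunit (Mrpl), 27 of the small subunit (Mrps) and 5 translation factors. Whether each protein sits in the subunit of its symbol was not checked. The 78 were among 14217 genes measured, and they have 104 of the 31042 probe sets tested. The rule uses gene symbols and no measured value, although the members were chosen with earlier results of these data known.

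Mitochondria keep a small genome that codes for core subunits of the respiratory chain and of ATP synthase, and they translate it on ribosomes of their own. The RNAs of these ribosomes come from the mitochondrial genome, whereas all of the ribosomal proteins are encoded in the nucleus, made in the cytosol and imported. The large subunit holds the center that joins amino acids, and the small subunit reads the mRNA. Mrpl symbols stand here for the large subunit and Mrps symbols for the small subunit. Heart muscle cells are rich in mitochondria, and loss of single mitoribosomal proteins or elongation factors in people is known to cause disease that often affects the heart.

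The genes were measured in cardiomyocytes prepared from the ventricles of newborn Sprague-Dawley rats (aged 1 to 2 days) and kept for 24 hours in serum-free medium with adenovirus. One group of 2 arrays received virus coding for GFP (Ad-GFP), and the other group of 2 received virus coding for atrogin-1 as well as GFP (Ad-atrogin-1), so that both groups carry virus and GFP. Atrogin-1 is the F-box protein of a muscle ubiquitin ligase, encoded by Fbxo32. Per the labels, arrays within a group are biological replicates, but the methods describe more independent experiments than there are arrays in a group, and which cultures gave each array was not used here, so the p-values measure the spread between these arrays. Primary cultures of this kind also hold other cells of the heart, and RNA of all cells was measured together, so that fewer cells of a type and less RNA per cell cannot be told apart.

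Values are log2 signals from the robust multi-array average (RMA), as deposited, for Affymetrix rat arrays whose medians lay between 5.51 and 5.52. Fbxo32 had log2 signals of 5.24 and 5.04 on the Ad-GFP arrays and 13.55 and 13.47 on the Ad-atrogin-1 arrays, a log2 fold change of 8.37, which includes any RNA made by the virus. The markers of heart muscle Tnnt2 (log2 signals 12.81 to 13.05) and Myl3 (12.65 to 12.89), which encode troponin T and a myosin light chain, were bright on all 4 arrays.

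The promoters of these genes are shown first, because nuclear genes for mitochondrial proteins are known targets of the transcription factors NRF1, GABPA (also called NRF2) and YY1. RefSeq promoters, 250 bases before and 50 after the start of transcription in the rat build GRCr8, were matched by gene identifier to 62 of the 78 genes. Both strands were searched for GCATGCGC (the core of the NRF1 motif), CCGGAAG (the ETS motif of GABPA), AAGATGGCG (YY1), CACGTG (the E-box) and TGATGCAA (a motif of ATF4, a factor of the mitochondrial stress response). The letters of the GABPA motif were in 21 of the 62 promoters (33.9%, against 9.22% of all 27457 rat promoters), those of YY1 in 8 (12.9% against 1.93%) and those of NRF1 in 5 (8.07% against 2.66%). The E-box was in 6 (9.68% against 6.65%) and the ATF4 motif in 0 (against 0.743%). Thus 30 of the 62 held letters of at least 1 of NRF1, GABPA and YY1. A match is a description of the letters and not a site in use.

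Of the 250 bases before the start, those of 4 genes are printed because they hold the letters of these motifs and belong to genes described below: Mrps27, the member with the highest log2 fold change, Mrpl36, with 3 of the motifs, Mtif2, with the GABPA letters at 3 places, and Mrpl17, with those of NRF1. Capitals mark the motif letters on either strand. All run 5′ to 3′ on the strand of the gene, and they lie at chr2:32473954-32474203 (plus strand, Mrps27), chr1:31795122-31795371 (minus strand, Mrpl36), chr14:107466683-107466932 (plus strand, Mtif2) and chr1:169575700-169575949 (minus strand, Mrpl17) of GRCr8. In Mrpl17 the first run of capitals is a palindrome in which the forward and the reverse match overlap.
Mrps27: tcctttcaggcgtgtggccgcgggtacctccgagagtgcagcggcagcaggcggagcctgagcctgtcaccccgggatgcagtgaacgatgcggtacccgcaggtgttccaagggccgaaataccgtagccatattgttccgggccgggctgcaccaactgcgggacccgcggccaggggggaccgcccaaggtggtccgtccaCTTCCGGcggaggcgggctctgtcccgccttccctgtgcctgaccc
Mrpl36: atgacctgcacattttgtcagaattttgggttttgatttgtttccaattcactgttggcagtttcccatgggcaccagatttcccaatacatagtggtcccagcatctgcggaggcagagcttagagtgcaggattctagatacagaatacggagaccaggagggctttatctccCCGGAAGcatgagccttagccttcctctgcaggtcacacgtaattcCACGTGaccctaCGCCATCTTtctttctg
Mtif2: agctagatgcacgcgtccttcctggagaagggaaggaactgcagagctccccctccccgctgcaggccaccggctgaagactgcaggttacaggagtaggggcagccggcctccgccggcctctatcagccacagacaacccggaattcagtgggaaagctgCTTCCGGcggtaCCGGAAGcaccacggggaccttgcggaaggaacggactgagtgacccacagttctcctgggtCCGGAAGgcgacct
Mrpl17: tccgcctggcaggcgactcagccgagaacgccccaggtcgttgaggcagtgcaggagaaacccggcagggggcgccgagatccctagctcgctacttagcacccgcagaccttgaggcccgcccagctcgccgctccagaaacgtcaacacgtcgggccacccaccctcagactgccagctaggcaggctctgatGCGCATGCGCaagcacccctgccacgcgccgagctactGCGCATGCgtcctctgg

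Median log2 fold changes between Ad-atrogin-1 and Ad-GFP cells were above 0 both for genes with and for genes without these letters. The median was 0.31 for the 21 genes with the GABPA letters and 0.22 for the other matched genes. It was 0.22 with and 0.26 without the NRF1 letters, and 0.15 with and 0.26 without those of YY1. The factors themselves were measured too. Nrf1, which codes for the NRF1 protein, had log2 signals of at least 5.99 on the Ad-GFP arrays and of 5.75 and 5.64 on the Ad-atrogin-1 arrays, a log2 fold change of -0.30 (standard error, SE, 0.12, limma adjusted p = 0.357), so that the groups did not overlap but the difference did not pass the test. Gabpa (-0.09) and Yy1 (-0.14), named because their motifs were searched, also had log2 fold changes below 0.

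The main question was whether the genes of the mitochondrial ribosome differed between Ad-atrogin-1 and Ad-GFP cells. Signals of nearly all of them were somewhat higher in Ad-atrogin-1 cells, by 1.51-fold at most at the probe set that stands for a gene, and no single gene passed the test. With an adjusted p under 0.05 and a 2-fold change or more required (limma, Benjamini-Hochberg adjustment over all 14217 genes), 0 of the 78 were called higher, where 0.457% of all genes were, and 0 were called lower, where 0.0563% were. The smallest adjusted p among them was 0.166 (limma, Mrps27). At an unadjusted p under 0.05, limma gave 18 members higher (6.83% of all genes) and 0 lower (6.52% of all genes). An equal-variance t-test was also run, because the methods name only a comparison of means. At that threshold it gave 8 members higher (4.86% of all genes) and 1 lower (4.56% of all genes), and 0 after adjustment.

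The log2 fold change was above 0 for 74 of the 78 genes (94.9%), against 49.2% of all genes. Its median was 0.24, with quartiles of 0.16 and 0.34, against -0.0028 over all genes. Both Ad-atrogin-1 arrays lay above both Ad-GFP arrays for 49 members (62.8%), against 20.7% of all genes, and below them for 2 members (2.56%), against 22.3%. The other 27 overlapped. These shares count genes that were measured on the same 4 arrays, so the genes are not replicates of the comparison.

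**Figure D1:**
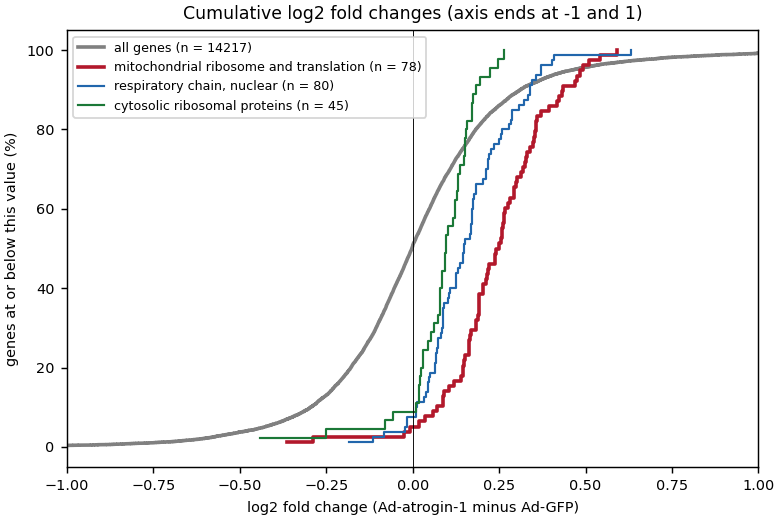
Percent of genes (vertical axis) at or below each log2 fold change of Ad-atrogin-1 over Ad-GFP (horizontal axis, ending at -1 and 1) for all 14217 genes, the 78 mitochondrial ribosome and translation genes, 80 nuclear respiratory chain genes and 45 cytosolic ribosomal protein genes. The curve of the 78 genes crosses 50% at 0.24 and that of all genes close to 0.

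The precision of these values is set by the 2 arrays of each group. The SE of a member's log2 fold change had a median of 0.14 and ranged from 0.11 to 0.28. The 95% interval lay within 2-fold in either direction for 75 of the 78 genes. It reached 2-fold higher for Mrps35, Mrpl36 and Mrpl40. At the probe sets that stand for the genes, mean log2 signals ran from 6.69 to 10.47 with a median of 8.57, so that none lay near the lower quartile of the arrays (3.88 to 3.94). Among the 10498 genes of the upper 60% of probe sets by signal, the range in which the members lie, 23.3% were higher with non-overlapping groups and the median log2 fold change was 0.0069.

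The arrays of a group differed from each other in the same genes. Ad-GFP replicate 2 was lower than Ad-GFP replicate 1 for 65 of the 78 genes, by a median of 0.18 on the log2 scale, and Ad-atrogin-1 replicate 2 was lower than replicate 1 for 68, by a median of 0.13. Over all genes the medians of these differences were -0.0019 and -0.0032. Between the groups, the median difference was 0.22 for Ad-atrogin-1 replicate 1 over Ad-GFP replicate 1 and 0.41 for the same array over Ad-GFP replicate 2. It was 0.28 for Ad-atrogin-1 replicate 2 over Ad-GFP replicate 2 but 0.05 over Ad-GFP replicate 1. The smallest of the 4 differences between groups is therefore less than the difference between the arrays of a group, and the size of the shift depends on which arrays are set against each other. What sets the arrays of a group apart was not tested.

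Counts of genes show the same order. Ad-atrogin-1 replicate 1 was above Ad-GFP replicate 1 for 72 of the 78 genes and above Ad-GFP replicate 2 for 75. Ad-atrogin-1 replicate 2 was above Ad-GFP replicate 2 for 72 but above Ad-GFP replicate 1 for 52, where 48.7% of all genes were. With 1 array left out, the median log2 fold change of the 78 genes was 0.36 without Ad-GFP replicate 1, 0.13 without Ad-GFP replicate 2, 0.16 without Ad-atrogin-1 replicate 1 and 0.31 without Ad-atrogin-1 replicate 2, and 0 members were called in each case (limma). In the same order, 22, 2, 3 and 9 members were higher at an unadjusted p under 0.05, where 5.59%, 4.65%, 4.77% and 6.04% of all genes were, so that without Ad-GFP replicate 2 or Ad-atrogin-1 replicate 1 the members' share was under the background.

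**Figure D2:**
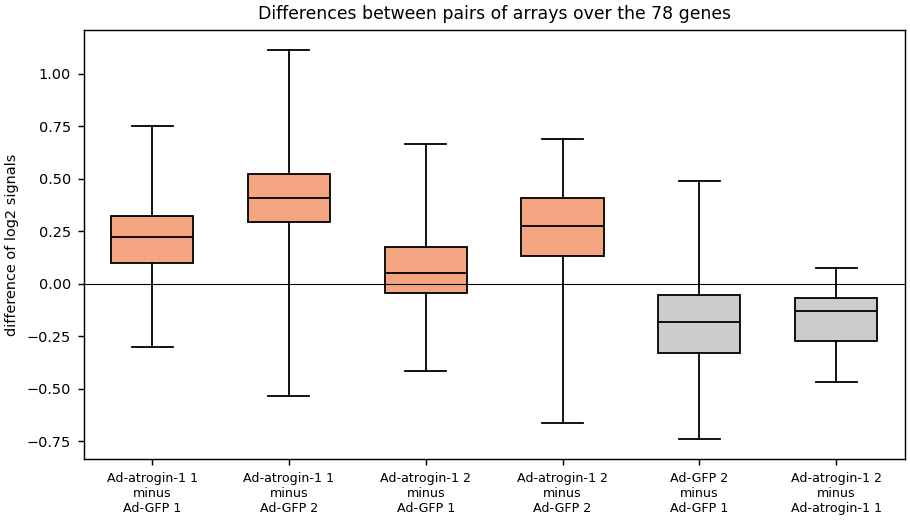
Differences of log2 signals (vertical axis) between pairs of arrays over the 78 genes, for the 4 pairs across the groups (orange) and the 2 pairs within a group (grey); boxes span the quartiles with a line at the median, and whiskers reach the lowest and the highest gene. Medians across the groups run from 0.05 to 0.41, and those within a group are -0.18 and -0.13.

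The small subunit, as grouped by symbol, had the higher median of the 2 subunits. Of its 27 genes, 25 had a log2 fold change above 0 (92.6%, against 49.2% of all genes), and the median was 0.30. With non-overlapping groups, 22 were higher (81.5%, against 20.7% of all genes) and 1 was lower (3.70%, against 22.3%). The other 4 overlapped (Mrps2, Mrps12, Mrps17 and Mrps23). At an unadjusted p under 0.05, 10 were higher (37.0%, against 6.83% of all genes) and 0 lower (against 6.52%, limma). In this subunit 0 were called, where 0.457% of all genes were called higher and 0.0563% lower. The difference between the subunits was not tested, since their genes share the arrays.

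Mrps27, a protein of the pentatricopeptide repeat family that is found in mitochondrial and not in bacterial ribosomes, had the highest value of all 78 genes. Its log2 signals were 6.67 and 6.91 on the Ad-GFP arrays and 7.43 and 7.34 on the Ad-atrogin-1 arrays. The log2 fold change was 0.59 (95% interval 0.26 to 0.93, SE 0.13, limma adjusted p = 0.166). Both Ad-atrogin-1 arrays were above both Ad-GFP arrays at each of its 3 probe sets, with log2 fold changes of 0.46 to 0.67. Mrps35, also particular to mitochondria, had log2 signals of 7.92 and 7.43 in Ad-GFP and 8.36 and 8.06 in Ad-atrogin-1 cells. Its log2 fold change of 0.54 (SE 0.20, limma adjusted p = 0.348) rested on Ad-GFP arrays that differed by nearly as much as the groups did.

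Mrps16 and Mrps15 are relatives of the bacterial ribosomal proteins S16 and S15, which bind the RNA of the small subunit. Mrps16 had log2 signals of 8.84 and 8.46 in Ad-GFP and 9.28 and 8.96 in Ad-atrogin-1 cells (log2 fold change 0.47, SE 0.19, limma adjusted p = 0.371). Mrps15 had 8.53 and 8.16 in Ad-GFP and 8.78 and 8.77 in Ad-atrogin-1 cells (0.43, 0.16, limma adjusted p = 0.332). In both, the groups did not overlap and the lower Ad-GFP array was replicate 2. Mrps28, whose probe set was the dimmest of the ribosomal protein genes, had log2 signals of 6.84 and 6.76 against 7.21 and 7.10, a log2 fold change of 0.36 (SE 0.12, limma adjusted p = 0.294), with arrays of a group that lay close together.

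Mrps6, a relative of bacterial S6, stood apart. Its log2 signals were 9.37 and 9.84 in Ad-GFP and 9.31 and 9.18 in Ad-atrogin-1 cells, so that both Ad-atrogin-1 arrays were below both Ad-GFP arrays. The log2 fold change was -0.36 (SE 0.18, limma adjusted p = 0.476) and became -0.13 without Ad-GFP replicate 2. Here Ad-GFP replicate 2 was the highest array, whereas it was the lowest for most members. The other 16 small subunit genes that were higher with non-overlapping groups, among them Mrps11, Mrps31 and Mrps33, had log2 fold changes of 0.14 to 0.37. The 4 that overlapped had values of -0.0082 to 0.18.

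In the large subunit, 44 of 46 genes had a log2 fold change above 0 with a median of 0.22. Both Ad-atrogin-1 arrays were above both Ad-GFP arrays for 23 (50%, against 20.7% of all genes) and below them for 1 (2.17%, against 22.3%). The other 22 overlapped. At an unadjusted p under 0.05, 7 were higher (15.2%, against 6.83% of all genes) and 0 lower (against 6.52%, limma). In this subunit 0 were called, where 0.457% of all genes were called higher and 0.0563% lower. Against Ad-GFP replicate 1 alone, the median over the large subunit was 0.22 for Ad-atrogin-1 replicate 1 and 0.01 for replicate 2, where the small subunit had 0.21 and 0.13.

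Mrpl2, a relative of bacterial L2 near the peptidyl transferase center, had log2 signals of 7.39 and 7.34 on the Ad-GFP arrays and 7.99 and 7.73 on the Ad-atrogin-1 arrays, a log2 fold change of 0.49 (SE 0.14, limma adjusted p = 0.233). Mrpl12 belongs to the stalk that binds translation factors and is known to bind the mitochondrial RNA polymerase as well. It had log2 signals of 9.15 and 9.05 in Ad-GFP and 9.69 and 9.46 in Ad-atrogin-1 cells (log2 fold change 0.48, SE 0.13, limma adjusted p = 0.233), and its second and dimmer probe set had a log2 fold change of 0.05 with overlapping groups. Mrpl20, a relative of bacterial L20, which takes part in assembly of the large subunit, had log2 signals of 8.52 and 8.46 in Ad-GFP and 8.95 and 8.91 in Ad-atrogin-1 cells. Its log2 fold change was 0.43 (SE 0.11, limma adjusted p = 0.213), with arrays of each group within 0.1 of each other. Mrpl48, a protein of mitochondrial ribosomes alone, had 7.42 and 7.43 in Ad-GFP and 7.95 and 7.74 in Ad-atrogin-1 cells (0.42, 0.13, limma adjusted p = 0.262). In these 4 genes the Ad-GFP arrays were close together, and the gap between the groups was wider than the spread within either.

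Mrpl36 and Mrpl47, relatives of bacterial L36 and L29, had similar log2 fold changes but more spread. Mrpl36, whose promoter is printed above, had log2 signals of 8.09 and 7.64 in Ad-GFP and 8.54 and 8.15 in Ad-atrogin-1 cells (log2 fold change 0.48, SE 0.21, limma adjusted p = 0.409). Mrpl47 had 8.62 and 8.01 against 8.77 and 8.70 (0.42, 0.22, limma adjusted p = 0.487), and its log2 fold change was 0.11 without Ad-GFP replicate 2. Mrpl40 had the highest log2 fold change of the large subunit, 0.51 (SE 0.28), yet its groups overlapped, with 7.77 and 7.03 in Ad-GFP and 8.14 and 7.67 in Ad-atrogin-1 cells. It is named here after its values were seen.

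Mrpl49, another protein of mitochondrial ribosomes, was the large subunit gene that was lower with non-overlapping groups. It had log2 signals of 8.57 and 8.47 in Ad-GFP and 8.27 and 8.19 in Ad-atrogin-1 cells, a log2 fold change of -0.29 (SE 0.12, limma adjusted p = 0.382). Both of its probe sets had values below 0 (-0.29 and -0.13), the second with overlapping groups. Mrpl17 and Mrpl54 were the large subunit genes with the highest signals. Mrpl17, a relative of bacterial L17, had log2 signals of 10.49 and 10.19 in Ad-GFP and 10.59 and 10.60 in Ad-atrogin-1 cells (log2 fold change 0.25, SE 0.14), and Mrpl54 had 9.85 and 9.69 against 10.06 and 9.80 (0.16, 0.14), where the groups overlapped.

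Among the other large subunit genes, 16 were higher with non-overlapping groups, with log2 fold changes of 0.09 (Mrpl43) to 0.39 (Mrpl58). Mrpl58 is a release factor that became part of the ribosome and frees stalled peptides. It had log2 signals of 8.10 and 8.14 in Ad-GFP and 8.64 and 8.40 in Ad-atrogin-1 cells. Mrpl32 (-0.02) and the small subunit gene Mrps12 (-0.0082) were, beside Mrpl49 and Mrps6, the members with a log2 fold change below 0, and both overlapped between the groups. These genes, too, are named after their values were seen.

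**Figure D3:**
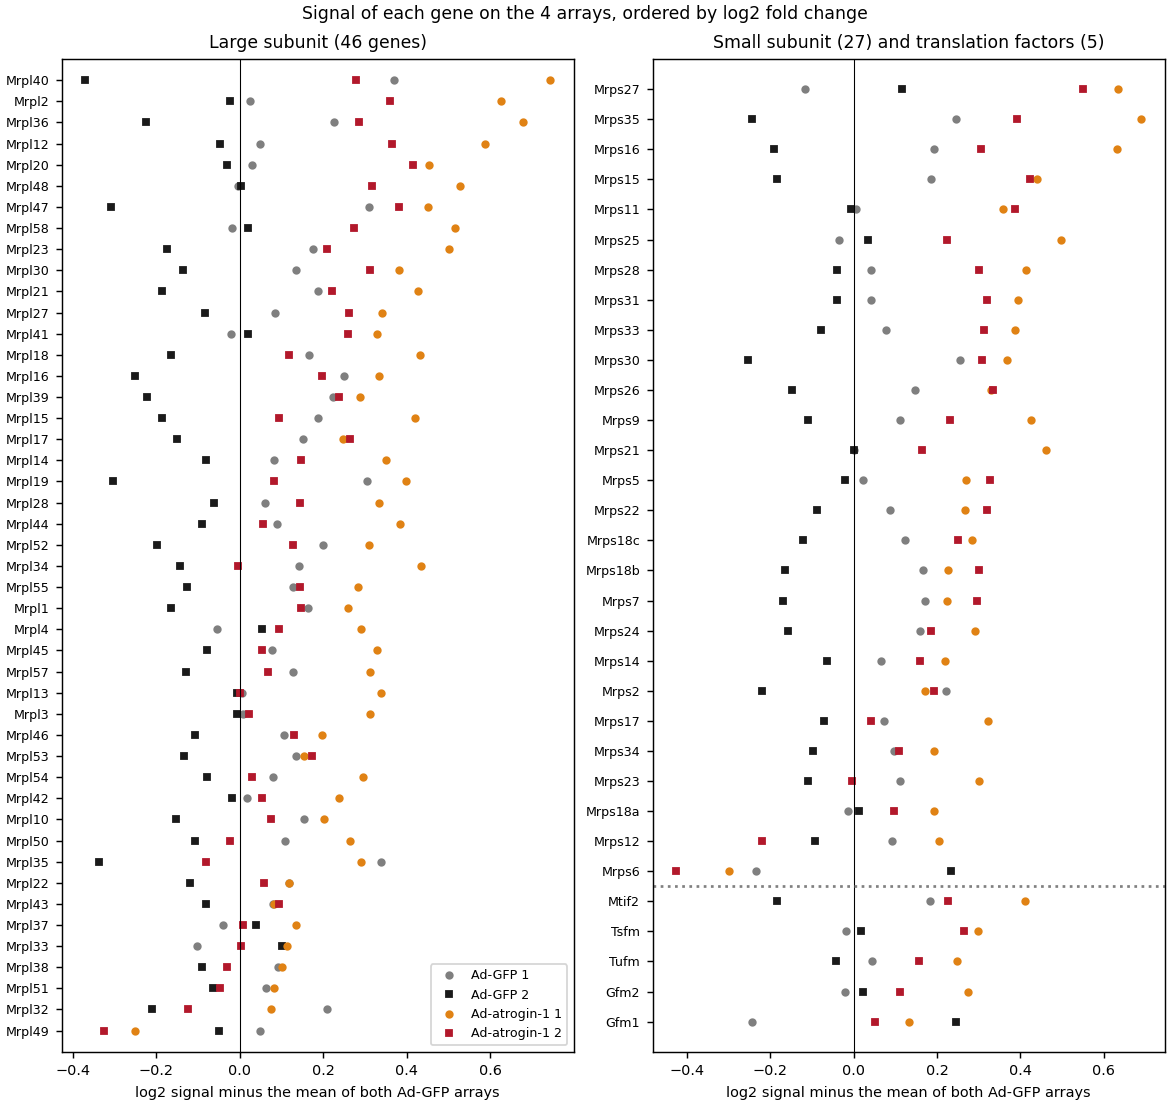
Log2 signal of every member on each of the 4 arrays minus the mean of both Ad-GFP arrays for that gene (horizontal axis), with large subunit genes on the left and small subunit genes and, under the dotted line, translation factors on the right, ordered by log2 fold change. Ad-GFP replicate 2 (black squares) lies below Ad-GFP replicate 1 (grey circles) for 65 of 78 genes, and Mrpl49 and Mrps6 have both Ad-atrogin-1 arrays lowest.

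The translation factors carry out initiation (Mtif2), elongation (Tufm, Tsfm and Gfm1) and recycling of the ribosome (Gfm2). All 5 had log2 fold changes above 0, with a median of 0.20. Of these, 4 were higher with non-overlapping groups (80%, against 20.7% of all genes). At an unadjusted p under 0.05, 1 was higher (20%, against 6.83% of all genes, limma). Of the 5, 0 were called, where 0.457% of all genes were called higher and 0.0563% lower. Tsfm, which reloads the elongation factor Tu with GTP, had log2 signals of 7.75 and 7.78 in Ad-GFP and 8.07 and 8.03 in Ad-atrogin-1 cells. Its log2 fold change of 0.28 had a SE of 0.11 (limma adjusted p = 0.371), and the arrays of each group lay within 0.05 of each other. Tufm, the elongation factor Tu that brings aminoacyl-tRNA to the ribosome, had 9.86 and 9.77 against 10.06 and 9.97 (log2 fold change 0.20, SE 0.12, limma adjusted p = 0.534). Its 3 probe sets had log2 fold changes of 0.06, 0.20 and 0.36, the lowest at the dimmest.

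Mtif2, the initiation factor that recruits the initiator tRNA, had log2 signals of 7.53 and 7.16 in Ad-GFP and 7.76 and 7.57 in Ad-atrogin-1 cells (log2 fold change 0.32, SE 0.17, limma adjusted p = 0.487). Gfm2, the dimmest member, had 6.57 and 6.62 against 6.87 and 6.71 (0.19, 0.12, limma adjusted p = 0.570). Gfm1, which moves tRNA and mRNA through the ribosome, had 8.31 and 8.80 in Ad-GFP and 8.69 and 8.60 in Ad-atrogin-1 cells, so that the groups overlapped. Its log2 fold change of 0.09 (SE 0.19, limma adjusted p = 0.883) became -0.15 without Ad-GFP replicate 1 and 0.34 without Ad-GFP replicate 2, and no direction can be given for it.

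**Figure D4:**
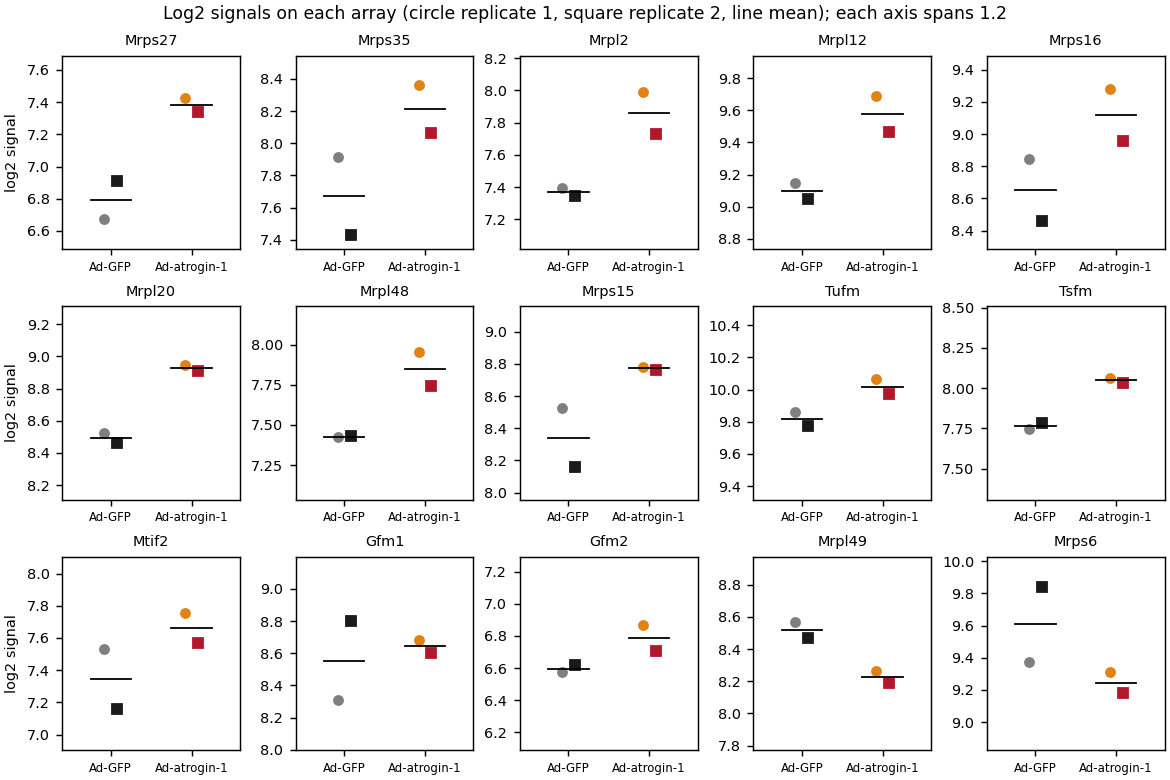
Log2 signals (vertical axes, each spanning 1.2) of 15 members on the Ad-GFP arrays and the Ad-atrogin-1 arrays, with circles for replicate 1, squares for replicate 2 and lines for group means. Both Ad-atrogin-1 arrays are above both Ad-GFP arrays in each panel but those of Gfm1, where the groups overlap, and of Mrpl49 and Mrps6, where they are below.

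Several genes were measured by more than 1 probe set, which gives a second reading from the same RNA. Of the 19 such genes, 13 had log2 fold changes above 0 at all their probe sets, 1 (Mrpl49) had values below 0 at both, and 5 were mixed (Mrpl37, Mrps14, Mrps18c, Mrps22 and Mrps24). Over all 104 probe sets, 94 were above 0 (47.1% of all 31042 probe sets), 57 were higher with non-overlapping groups (18.3% of all) and 4 were lower (22.1% of all). In 2 genes, probe sets pointed in opposite directions with non-overlapping groups. Mrpl37 had a log2 fold change of 0.07 at its brightest probe set and 0.20 at the next, but -0.16 at one with a mean log2 signal of 5.18. Mrps18c had 0.27 and 0.40, but -0.21 at one with a mean of 3.07, under the lower quartile of the arrays. Mrpl51 had 4 probe sets with log2 fold changes of 0.02 to 0.57, the lowest at the brightest one. The probe sets below 0 were dim in Mrpl37, Mrps18c, Mrps22 and Mrps24, whereas that of Mrps14 had a mean of 7.89.

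**Figure D5:**
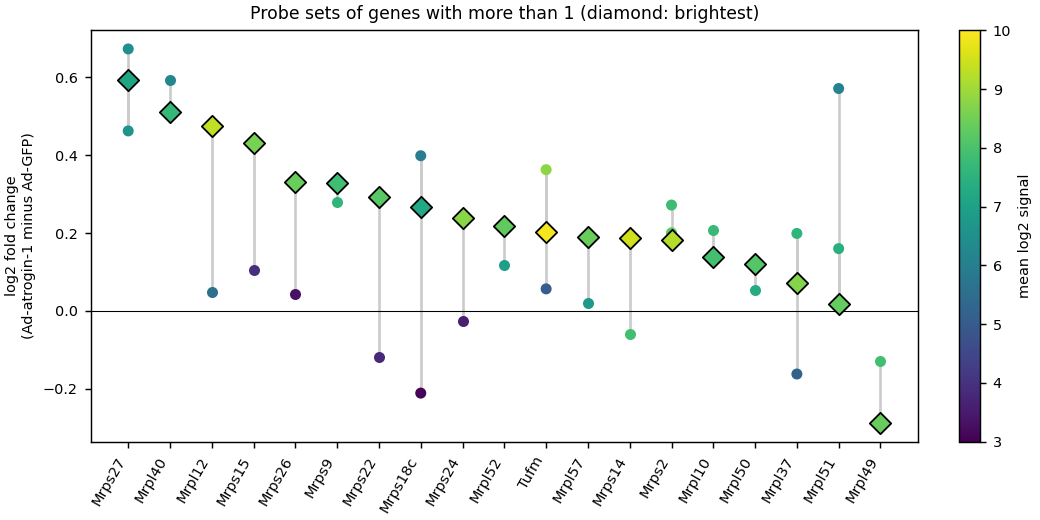
Log2 fold change (vertical axis) of each probe set of the 19 genes with more than 1, with a diamond for the brightest probe set of a gene and color for the mean log2 signal. All probe sets of Mrps27 lie between 0.46 and 0.67, both of Mrpl49 lie below 0, and those of Mrpl37 and Mrps18c lie on both sides of 0.

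Genes that work beside the mitochondrial ribosome were read from the same fit. In none of these lists was a gene called (0.457% of all genes were called higher and 0.0563% lower). Each count is given by direction with its median. Over all genes, 49.2% were above 0, and 20.7% were higher and 22.3% lower with non-overlapping groups. Of 5 ribosomal proteins that carry other names, 4 had log2 fold changes above 0 (median 0.35). Aurkaip1 had log2 signals of 8.29 and 8.17 in Ad-GFP and 8.78 and 8.67 in Ad-atrogin-1 cells (log2 fold change 0.49, SE 0.12, limma adjusted p = 0.193), and Ptcd3 had a log2 fold change of 0.37 (limma adjusted p = 0.274). Dap3, a GTP-binding protein of the small subunit that is named after its value was seen, was at -0.08 with both Ad-atrogin-1 arrays below both Ad-GFP arrays.

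Factors for the initiator tRNA, for release and for recycling were above 0 in 7 of 7 genes (median 0.13). Of these, 2 were higher with non-overlapping groups (28.6%, against 20.7% of all genes). The highest was Metap1d, which removes the first methionine of mitochondrial proteins, at 0.38 (SE 0.11, limma adjusted p = 0.255). Of 23 genes that assemble the mitochondrial ribosome or modify its RNA, 17 were above 0 (median 0.13). With non-overlapping groups, 6 were higher (26.1%, against 20.7% of all genes) and 1 lower (4.35%, against 22.3%). Mtg1, a GTPase of large subunit assembly, had log2 signals of 7.66 and 7.37 in Ad-GFP and 8.15 and 7.89 in Ad-atrogin-1 cells (0.50, SE 0.16, limma adjusted p = 0.273). Mettl17, which is needed for the small subunit, was at 0.47 (SE 0.14, limma adjusted p = 0.266).

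Of 14 genes for handling mitochondrial mRNA or inserting the products into the membrane, 12 were above 0 (median 0.16). With non-overlapping groups, 8 were higher (57.1%, against 20.7% of all genes) and 0 lower (against 22.3%). Cox18, which helps insert cytochrome oxidase subunit 2, had log2 signals of 8.59 and 8.41 in Ad-GFP and 8.99 and 9.02 in Ad-atrogin-1 cells (0.50, SE 0.12, limma adjusted p = 0.192). Fastk, which acts on mitochondrial RNA, was at 0.49 (SE 0.13, limma adjusted p = 0.225). Both had groups that did not overlap, and neither passed the test.

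The genes that maintain and transcribe mitochondrial DNA had a lower median, 0.05 over 9 genes, with 7 above 0. Of these 9 genes, 3 were higher with non-overlapping groups (33.3%, against 20.7% of all genes). Tfam, which packs and transcribes mitochondrial DNA, had log2 signals of 9.30 and 9.23 in Ad-GFP and 9.20 and 9.25 in Ad-atrogin-1 cells, so that its groups overlapped. Ssbp1, which binds single-stranded mitochondrial DNA, was at 0.35 (SE 0.18). Regulators of mitochondrial biogenesis went in both directions, with 3 of 9 above 0 and a median of -0.09. With non-overlapping groups, 2 were higher (22.2%) and 4 lower (44.4%, against 22.3% of all genes). Ppargc1a, the coactivator PGC-1alpha, had log2 signals of 7.16 and 7.38 in Ad-GFP and 8.28 and 7.67 in Ad-atrogin-1 cells (log2 fold change 0.70, SE 0.22, limma adjusted p = 0.274), the highest of the 9.

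Of 12 mitochondrial chaperones and proteases, 10 were above 0 (median 0.21). With non-overlapping groups, 5 were higher (41.7%, against 20.7% of all genes). Hspe1, the partner of the chaperonin Hspd1, had a log2 fold change of 0.39 (limma adjusted p = 0.341), and Dnaja3 one of 0.38 (limma adjusted p = 0.273). The products of mitochondrial translation were represented by COX1 and COX2 alone, whose log2 fold changes were -0.05 and 0.03. Their log2 signals of 13.63 to 13.99 are at the upper end of the arrays, where a difference may not be resolved. Protein made on the mitochondrial ribosome was not measured.

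The 80 nuclear genes for respiratory chain and ATP synthase subunits, which join the products of mitochondrial translation, had a median log2 fold change of 0.15, with 74 above 0, 24 higher and 1 lower with non-overlapping groups. Cox4i2, an isoform of a cytochrome oxidase subunit, had a log2 fold change of 0.33 (SE 0.13, limma adjusted p = 0.364). Their arrays differed in another way. Ad-atrogin-1 replicate 2 was below replicate 1 by a median of 0.34, and it differed from the Ad-GFP arrays by medians of -0.04 and 0.02. The 45 ribosomal proteins of the cytosol had a median of 0.10, with 41 above 0 (91.1%). With non-overlapping groups, 27 were higher (60%) and 4 lower (8.89%). Here the medians of all 4 pairs across the groups lay between 0.04 and 0.14, and the lowest gene was Rpl28 at -0.44 (SE 0.13, limma adjusted p = 0.240).

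Markers of the cell types that such cultures can hold gave small median log2 fold changes, from -0.07 (7 epithelial and mesothelial genes) to 0.13 (12 cardiomyocyte and 9 endothelial genes). The median was 0.07 for 10 fibroblast and 3 erythroid genes, 0.08 for 8 smooth muscle genes and 0.10 for 9 macrophage and leukocyte genes. Single genes spread more widely, from -0.22 to 0.82 among cardiomyocyte genes and from -0.50 to 0.98 among smooth muscle genes. Summed over the 12 cardiomyocyte markers, the linear signal was 52422 and 55298 on the Ad-GFP arrays and 62078 and 50005 on the Ad-atrogin-1 arrays, so that it was highest on Ad-atrogin-1 replicate 1 and lowest on replicate 2. Endothelial markers summed to 678 and 918 in Ad-GFP and 690 and 1201 in Ad-atrogin-1 cells, higher on replicate 2 of each group, where most mitochondrial ribosome genes were lower. Macrophage markers summed to 350.2 and 396 against 593 and 258, and fibroblast markers to 10537 and 13751 against 13459 and 12784. Epithelial markers summed to 293 and 251 against 405 and 455. Of these, Krt19 had log2 signals of 3.20 and 5.48 in Ad-GFP and 7.89 and 8.09 in Ad-atrogin-1 cells. Yet only 2 of the 7 epithelial genes had a log2 fold change above 0, and the lowest was at -0.83. The part of these differences in the values of the 78 genes was not tested.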

How the data were processed

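RNA of rat cardiomyocytes was measured in 4 samples, 2 per group, on 1 Affymetrix array each. The deposited values are log2 signals per probe set, which the authors made by RMA in GeneSpring GX. RMA corrects the background and brings the distributions of the arrays close together, so a shift shared by all genes cannot be seen. The deposited distributions were not identical. Their upper quartiles were 7.28 and 7.27 on the Ad-GFP arrays and 7.32 and 7.28 on the Ad-atrogin-1 arrays. The values were used as deposited. Control probe sets (57) were dropped, and the remaining 31042 were all kept, dim ones included. A platform table paired 20826 of them with 1 gene, 436 with several and 9780 with none. A gene takes the values of its probe set with the highest mean signal.

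The comparison used the two-sided moderated test of limma 3.58.1 (R 4.3.3) without a block, with 2 residual and 3.65 prior degrees of freedom and Benjamini-Hochberg adjustment over 14217 genes. The code was tested on simulated data. Members and lists were chosen with earlier results of these data known. Named members are the 10 highest and up to 8 lowest with non-overlapping groups, the translation factors, the 3 brightest and 2 dimmest, and those with probe sets in opposite directions. In other lists but those of cell type markers, up to 2 with the largest change at an unadjusted p under 0.05 are named, or else the 2 brightest. Fbxo32 is named as the targeted gene. Of the cell type markers only Tnnt2, Myl3 and Krt19 are named, although smooth muscle genes also passed that threshold. Alternatives were other scalings, filters, probe set rules, priors, tests and thresholds, a replicate block and leaving out each array.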

Additional observations from a re-analysis of the deposited data

How the results depend on the processing

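The number of arrays limits every value. With 2 per group, 0 of the 78 genes were called under any alternative that kept all 4 arrays and used an adjusted p. The smallest adjusted p then ran from 0.135 (limma, mean of a gene's probe sets) to 0.365 (equal-variance t-test). At an unadjusted p under 0.05 with no fold threshold, 18 were higher (6.83% of all genes) and 0 lower (6.52% of all genes, limma). With each array left out in turn, the median log2 fold change ranged from 0.13 to 0.36 over all members, from 0.11 to 0.33 for the large subunit, from 0.18 (without Ad-GFP replicate 2) to 0.40 for the small subunit and from 0.16 to 0.27 (without Ad-atrogin-1 replicate 2) for the translation factors. The members higher with non-overlapping groups then numbered 49 to 72 (33.2% to 35.7% of all genes), and those lower 2 to 6 (35.8% to 37.9% of all genes), with 6 without Ad-GFP replicate 2. Of 308 values of the 22 named members under the alternatives, 1 turned its direction: Gfm1, at -0.15 without Ad-GFP replicate 1 and 0.34 without Ad-GFP replicate 2. Another 10 passed an unadjusted p alone. Many of the 308 could not turn, because a change of filter, prior, test, threshold or block left every log2 fold change as it was. A turn was possible only with another scaling, with averaged probe sets or with an array left out. The log2 fold change was above 0 for 67 to 76 members in all settings. A further quantile normalization lowered the median over all members to 0.21. With non-overlapping groups, 42 members were then higher (20.6% of all genes) and 2 lower (23.3% of all genes). At an unadjusted p under 0.05, 12 were higher (6.58% of all genes) and 1 lower (7.01% of all genes, limma).

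With the replicate number as a block, 0 members were called and the smallest adjusted p was 0.263 (limma). At an unadjusted p under 0.05, 18 members were higher (6.9% of all genes) and 0 lower (6.06% of all genes, limma). The genes called in all went from 73 to 1. Same-numbered arrays deviated from their group means with a correlation of 0.043 over all probe sets, so the main comparison did not take the numbers as pairs. That correlation does not describe the 78 genes by themselves. Among these, replicate 2 was below replicate 1 for 65 genes (Ad-GFP) and 68 genes (Ad-atrogin-1), and above it for 13 and 10. Whether arrays of the same number share a culture was not tested. Over all genes, limma called 80 higher and 18 lower after centring arrays on their medians, 74 and 20 after a further quantile normalization and 1 or 0 in all with an array left out; the equal-variance t-test called 0 after adjustment.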
